A study of Mus musculus with 3 samples.

Results

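Aquaporins are membrane channels that form the main routes for water across many cell membranes. The subgroup called aquaglyceroporins also passes glycerol, and several members of either kind let hydrogen peroxide through. In fat cells, glycerol made when stored triglyceride is broken down leaves largely through AQP7, and its release belongs to the fasting response. Here the transcript levels of 10 aquaporin genes were described in fat cells exposed to an enzyme that makes hydrogen peroxide. The genes were chosen by name (Aqp1 to Aqp9 and Aqp11), out of 18194 genes measured, and were represented by 22 probe sets out of 34958 that the array annotation assigns to 1 gene.

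RNA came from 3 samples of 3T3-L1 fat cells that had been exposed to glucose oxidase for 2 h. 3T3-L1 is a mouse fibroblast line that is turned into adipocytes in culture, and the label calls the treated cells insulin resistant. One label names preadipocytes as the tissue, whereas the growth protocol describes adipocytes differentiated from them. All samples shared the treatment, and untreated arrays were not analysed here, so every value below is a level after treatment and no change with treatment can be given.

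Levels are log2 of the deposited intensity on the mouse4302 Affymetrix array. Probe sets bind with different strength, so the levels of different probe sets, of 1 gene or of several, were not ranked against each other as a result. Each was set against a background line at a log2 intensity of 7.57, the 95th percentile of 87 probe sets for odorant, vomeronasal, taste and trace amine receptors. A gene was called above background if any of its probe sets lay above the line in all 3 arrays. As a check of the cell type, all 10 measured adipocyte genes lay above background, against 54.5% of all measured genes. They included Lpl at 14.22 ± 0.01 and Retn at 13.67 ± 0.04 (SD, n = 3), the genes for lipoprotein lipase and resistin. Of 8 measured preadipocyte and fibroblast genes, 7 were also above background, among them Dlk1, a marker of undifferentiated preadipocytes. Dlk1 was at 13.24 ± 0.10 (SD, n = 3) and was above the line by only 1 of its 2 probe sets. That probe set can cross-hybridise with other transcripts, and without such probe sets the count was 6. Cd34 was below the line, at 5.49 ± 0.08 (SD, n = 3). In RNA from a whole culture, fewer cells of a type and less RNA per cell cannot be told apart. The sources do not state if the 3 samples came from separate cultures, and their spread may therefore be purely technical.

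Of the 10 aquaporin genes, 4 were above background, Aqp2, Aqp5, Aqp7 and Aqp11, against 54.5% of all measured genes, and 6 were not. By probe set the count was 5 of 22, against 45.4% of all probe sets with 1 gene. The number of probe sets affects the gene count, since genes with 1 probe set were above background in 39.3% of cases and genes with several in 70.0%. Of the aquaporins, 4 had 1 probe set and 6 had several. Only Aqp7 was above background by more than 1 probe set.

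**Figure D1:**
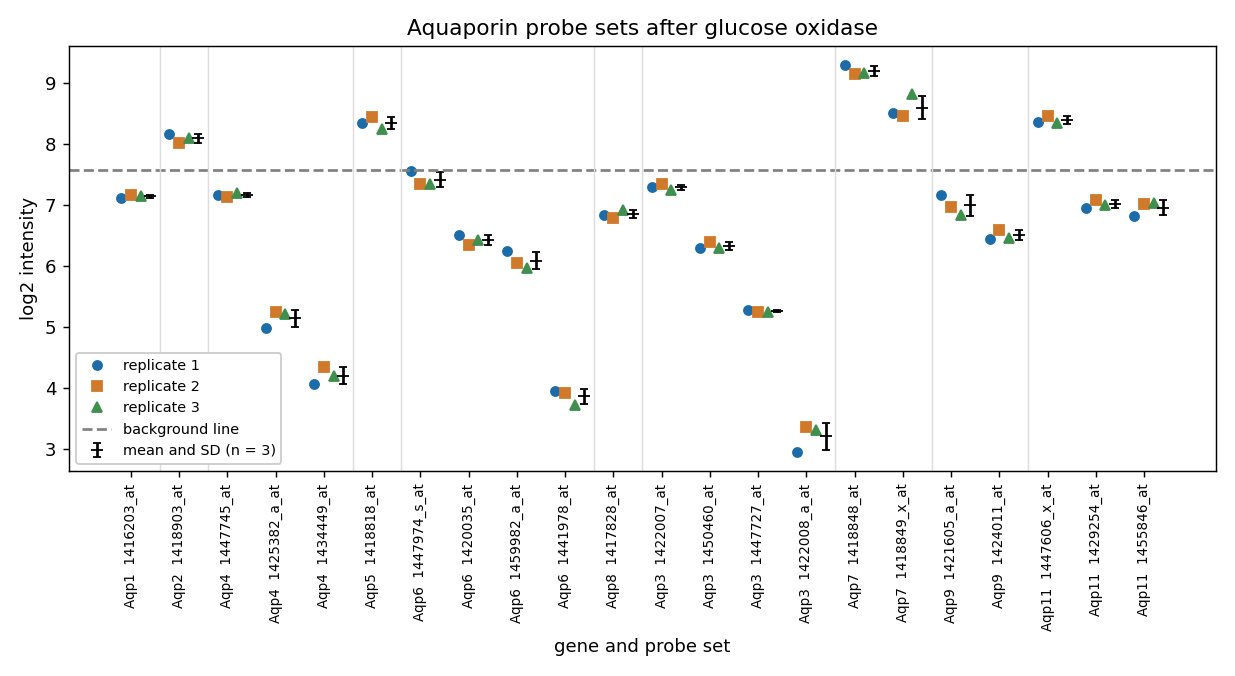
Log2 intensity (y axis) of the 22 aquaporin probe sets (x axis, by gene) in each of the 3 glucose oxidase arrays, each replicate drawn as its own symbol beside a bar for mean and SD (n = 3), and the background line at 7.57. Both Aqp7 probe sets and the probe sets of Aqp2 and Aqp5 lie above the line in all 3 replicates, as does 1 of the 3 Aqp11 probe sets, and heights of different probe sets are not comparable.

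Of Aqp3, Aqp7 and Aqp9, the genes taken here as those of aquaglyceroporins, only Aqp7 was above background. Aqp7 encodes the main glycerol channel of adipocytes, and both of its probe sets were above the line in every array. Probe set 1418848_at was at 9.28, 9.14 and 9.15 in replicates 1, 2 and 3, a mean of 9.19 ± 0.08 (SD, n = 3), or 3.09 times the background line on the linear scale. Probe set 1418849_x_at was at 8.50, 8.46 and 8.81, a mean of 8.59 ± 0.19 (SD, n = 3), or 2.03 times the line. Its suffix marks a probe set that can cross-hybridise with other transcripts, whereas that of 1418848_at does not. None of the 87 receptor probe sets had a mean as high as either. The Aqp7 probe sets did not put the arrays in the same order: the first was highest in replicate 1 and the second in replicate 3.

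Aqp3 and Aqp9 were not above background. Aqp3, which encodes a water and glycerol channel of the epidermis and the kidney collecting duct, was measured by 4 probe sets, with means from 3.20 to 7.28. The Aqp3 probe set nearest to the line, 1422007_at, was at 7.28, 7.33 and 7.24 in replicates 1, 2 and 3. Aqp9, which encodes the glycerol channel of liver cells, was at 7.16, 6.96 and 6.84 by probe set 1421605_a_at. By 1424011_at, Aqp9 was at 6.44, 6.59 and 6.46. In every array, both Aqp9 probe sets and all 4 of Aqp3 were thus below a line that 4 of the 87 receptor probe sets themselves passed in all arrays.

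RefSeq windows of 250 bases before the annotated start (GRCm38.p6) were found for 9 of the 10 genes, 11 windows in all, with 2 each for Aqp7 and Aqp9. They were searched on both strands for AGGTCA, the half-site bound by many nuclear receptors. PPARγ, the nuclear receptor that directs fat cell differentiation, binds such half-sites in pairs. The motif was in 3 of the 11 windows, those of Aqp7 and Aqp11, against 14.0% of 32851 windows of the same length. The windows of these 2 genes are shown for that reason (for Aqp7 that of the upstream start), with the half-site in capitals (TGACCT is AGGTCA read on the other strand).
Aqp7, chr4:41048137-41048386, minus strand: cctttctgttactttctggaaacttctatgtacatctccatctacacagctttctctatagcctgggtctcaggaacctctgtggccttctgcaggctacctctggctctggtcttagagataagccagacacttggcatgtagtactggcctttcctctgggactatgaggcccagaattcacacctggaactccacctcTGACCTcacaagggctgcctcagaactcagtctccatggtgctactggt
Aqp11, chr7:97738248-97738497, minus strand: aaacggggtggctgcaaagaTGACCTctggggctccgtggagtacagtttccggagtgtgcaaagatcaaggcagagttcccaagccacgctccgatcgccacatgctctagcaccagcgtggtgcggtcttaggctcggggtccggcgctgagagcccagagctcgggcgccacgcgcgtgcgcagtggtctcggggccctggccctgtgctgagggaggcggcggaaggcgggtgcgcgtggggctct
The printed Aqp7 half-site begins 49 bases before the start. The window of the other annotated Aqp7 start overlaps the printed one and held 2 half-sites, the same one and another that begins 101 bases before that start. The Aqp11 half-site begins 230 bases before its start. A match is a description of the letters and was not tested for binding. The motifs and the windows shown were chosen after the sequences had been seen, so that these counts support nothing.

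The same windows were searched for 3 further motifs. The core of the antioxidant response element, TGACNNNGC, to which NRF2 binds, was in none of the 11 windows and in 10.2% of all windows, and its first 4 letters can overlap the reversed half-site. The TATA box TATAAA was in the Aqp3 window only, 29 bases before the start, against 12.4% of all windows. TGGAAA, the core bound by NFAT-type factors, was in 1 window each of Aqp7 and Aqp9, against 18.6% of all. Base composition varied widely among the aquaporins. The Aqp5 window was 78.4% G and C and held 38 CpG dinucleotides, an observed-to-expected ratio of 1.01 that exceeds that of 94.6% of all windows. The Aqp11 window held 23 CpG dinucleotides, with a ratio of 0.83. The printed Aqp7 window held 0 and that of the other Aqp7 start 2, with ratios of 0 and 0.10, against a median of 0.37 over all windows.

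Aqp11 encodes an aquaporin of the endoplasmic reticulum that has also been described in adipocytes, and its probe sets disagreed. Probe set 1447606_x_at was at 8.35, 8.46 and 8.34 in replicates 1, 2 and 3, a mean of 8.38 ± 0.07 (SD, n = 3), or 1.76 times the background line. The other Aqp11 probe sets were below the line in every array, at 6.94, 7.08 and 7.00 for 1429254_at and 6.81, 7.01 and 7.03 for 1455846_at. Only the probe set whose suffix marks possible cross-hybridisation was above the line. Without such probe sets, or when each gene was given the median over its probe sets, Aqp11 was not above background and the aquaporin count was 3. The number of all genes above background was then 9535 and 8006 in that order, against 9924.

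Aqp2 and Aqp5 encode water channels best known from epithelia, and both were above background by their single probe sets. AQP2 is the channel that vasopressin brings to the surface of kidney collecting duct cells, and AQP5 is that of secretory glands and the lung. Aqp2 was at 8.16, 8.01 and 8.09 in replicates 1, 2 and 3, a mean of 8.09 ± 0.07 (SD, n = 3), or 1.44 times the line. Aqp5 was at 8.34, 8.43 and 8.23, a mean of 8.34 ± 0.10 (SD, n = 3), or 1.71 times the line. Of the 87 receptor probe sets, 1 was higher than each of these means, with the highest at 8.45. With the 99th percentile of the receptor probe sets as background, a line of 8.03, Aqp2 was not above it because of replicate 2, and the other genes above background were Aqp5, Aqp7 and Aqp11.

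Markers of the tissues in which these channels are best known were mostly below the line. Over all measured genes, 54.5% were above the line, as were 39.3% of genes with 1 probe set. Of 9 kidney tubule genes, 2 were above it, Kap at 8.82 by 1 of its 2 probe sets and Lrp2 at 7.65 by 1 of its 3. The uromodulin gene Umod and the sodium, potassium and chloride cotransporter gene Slc12a1 were at 3.81 and 4.96, and the vasopressin receptor gene Avpr2 was at 7.17, all below the line. The median level of the kidney tubule list, with the highest probe set for each gene, was 6.79, 6.90 and 6.80 in replicates 1, 2 and 3. Of 5 lung and gland epithelium genes, 2 were above the line, Sftpb at 9.00 by its 1 probe set and Epcam at 10.20 by 1 of its 2. That share, 40%, was close to the share of genes with 1 probe set. The Epcam probe set above the line can cross-hybridise, and without such probe sets the count was 1. Scgb1a1 and Cdh1, which encode the club cell secretory protein and E-cadherin, were at 5.18 and 3.95. The median level of that list was 6.69, 6.98 and 6.83 in the 3 replicates. All these values are levels in a culture of a cell line, and the source of the Aqp2 and Aqp5 signal was not tested.

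**Figure D2:**
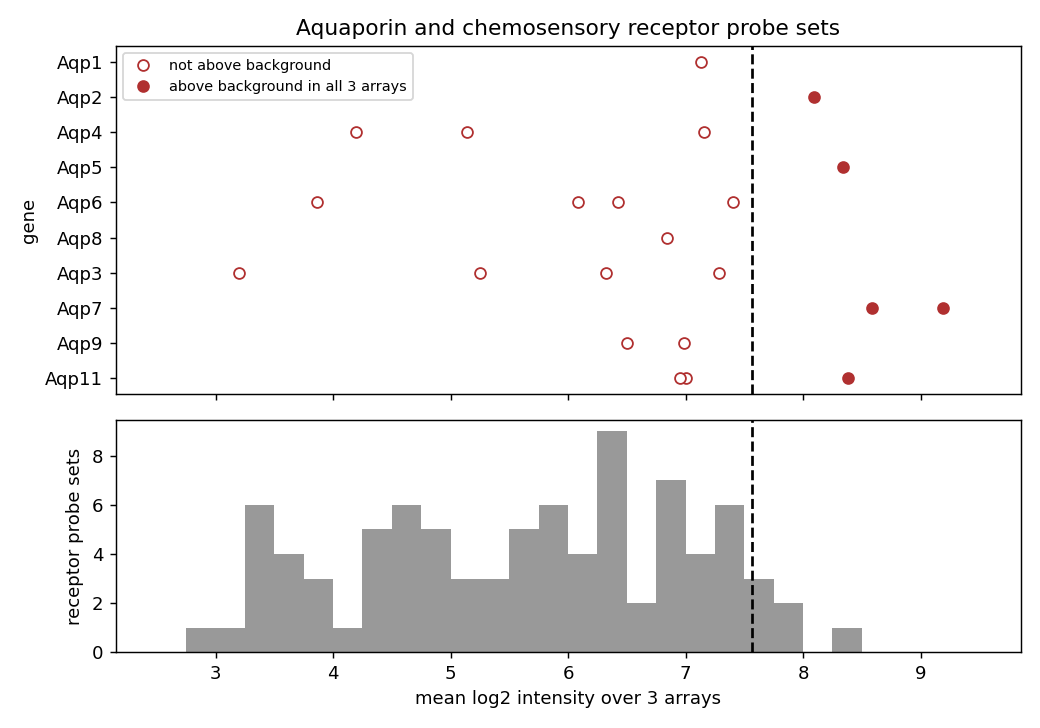
Mean log2 intensity over the 3 arrays (x axis) for each probe set of the 10 aquaporin genes (upper panel, 1 row per gene, filled where it lies above background in all 3 arrays) and the number of the 87 receptor probe sets per bin (lower panel), with the background line at 7.57. Of the filled points, the Aqp7 ones lie above every receptor probe set and those of Aqp2, Aqp5 and Aqp11 below the highest, at 8.45.

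The other water channels were not above background in any array. Aqp1 encodes the water channel of red blood cells, kidney proximal tubule and capillary endothelium, and was at 7.11, 7.15 and 7.14 in replicates 1, 2 and 3, or 0.74 of the line. None of 5 erythroid genes was above background in all 3 arrays, against 54.5% of all measured genes. Klf1, named after its values were seen, was above the line in replicates 1 and 2, at 7.88 and 7.67, and below it in replicate 3, at 7.52, so that the count was 1 without replicate 3, with the mean over arrays or with the 90th percentile. Of 6 endothelial genes 1 was above background, Kdr at 8.29 ± 0.11 (SD, n = 3), while Pecam1 was at 5.50. Aqp8, which encodes a channel among the several that also pass hydrogen peroxide, was at 6.83, 6.78 and 6.91, or 0.61 of the line. The members were not sorted by whether they pass hydrogen peroxide. Aqp4, which encodes the water channel of astrocyte end feet, was at 7.16, 7.13 and 7.20 by 1447745_at. By its other probe sets, 1425382_a_at and 1434449_at, Aqp4 averaged 5.14 ± 0.14 and 4.20 ± 0.14 (SD, n = 3). All 3 Aqp4 probe sets were below the line.

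Aqp6 came nearest to the line without passing it. AQP6 lies in vesicles inside kidney intercalated cells and conducts anions. By 1447974_s_at, which can cross-hybridise, Aqp6 was at 7.55, 7.34 and 7.33 in replicates 1, 2 and 3, or 0.90 of the line, and 8 of the 87 receptor probe sets were higher. Its other probe sets averaged 6.42 ± 0.08, 6.08 ± 0.14 and 3.86 ± 0.13 (SD, n = 3). All 4 Aqp6 probe sets were highest in replicate 1. With the 90th percentile as background, a line of 7.37, Aqp6 was still not above it in all arrays. Of the 17 probe sets of aquaporins below the line, 12 were above the median of the receptor probe sets, 5.79, and 5 were below it.

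Some aquaporin genes are neighbours in the genome. In the RefSeq annotation Aqp2, Aqp5 and Aqp6 follow each other with no other protein-coding gene between them, and Aqp7 and Aqp3 are next to each other. In the first cluster Aqp2 and Aqp5 were above background and Aqp6 was not. In the pair Aqp7 was above background and Aqp3 was not. Of the family genes outside the chosen 10, Aqp12, a channel of pancreatic acinar cells, was at 8.34, 8.29 and 8.29 in replicates 1, 2 and 3. It was above the line by its single probe set, with a mean of 8.31 ± 0.03 (SD, n = 3). Mip, the aquaporin of the eye lens, was below the line by both its probe sets, at 5.54 ± 0.02 and 4.19 ± 0.02 (SD, n = 3).

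Between arrays, no aquaporin probe set had an SD above 0.22 on the log2 scale. The SD over the 3 arrays had a median of 0.080 on the log2 scale for the 5 probe sets above background, against 0.051 over all probe sets above background. All 5 were above that median, but they were not set against probe sets of like level. For the 17 aquaporin probe sets below the line, the median SD was 0.083, against 0.080 over all others below it, and 10 of the 17 were above. The Aqp7 probe set 1418849_x_at varied most of the 5, with an SD larger than that of 99.3% of probe sets above background. This rested on replicate 3, which exceeded the mean of replicates 1 and 2 by 0.33 on the log2 scale. Without replicate 3 its SD was 0.034. For 1418848_at, replicate 3 was 0.061 below the mean of the other replicates (-0.061), so that the Aqp7 probe sets did not share this difference.

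Among all 22 aquaporin probe sets, the widest SD was 0.22, for the Aqp3 probe set 1422008_a_at, which lay far below the line. It was at 2.95, 3.35 and 3.30 in replicates 1, 2 and 3. Replicate 2 was the highest array for 10 of the 22 probe sets, replicate 1 for 8 and replicate 3 for 4. No array was thus highest or lowest for all aquaporins. Likeness of pattern to other genes was not computed, since 3 arrays of 1 condition give no pattern to compare.

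**Figure D3:**
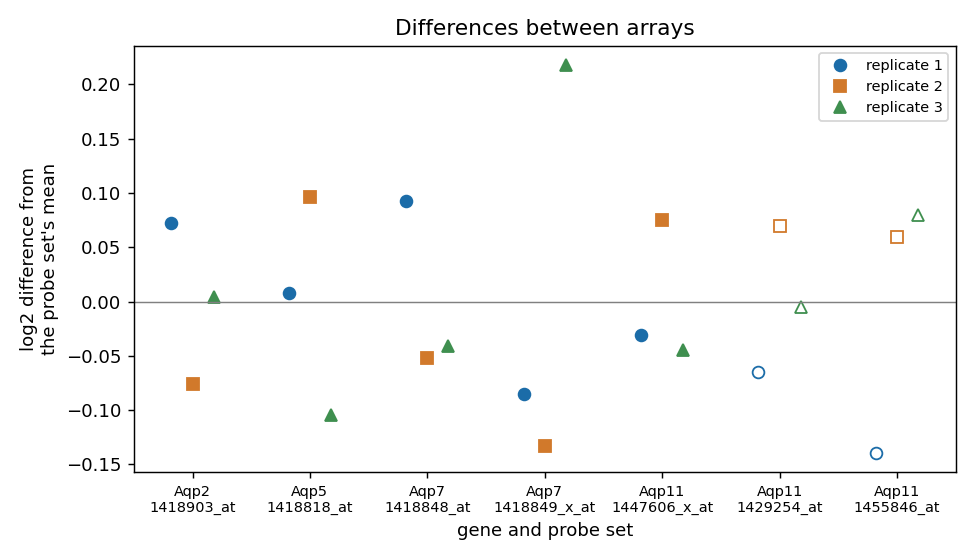
Log2 difference of each array from the mean of its probe set (y axis) for the probe sets of the 4 genes above background (x axis), with 1 symbol per replicate and open symbols for the 2 Aqp11 probe sets below the line. Replicate 3 is highest for the Aqp7 probe set 1418849_x_at, by 0.22 above the mean, and close to or below the mean for 1418848_at.

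Genes of the metabolism of glycerol, which AQP7 carries, were above background in 9 of 9 measured cases. The share was 54.5% over all measured genes and 70.0% over those with several probe sets. Of the 11 listed, Plin1 and Gk, which encodes the glycerol kinase that uses free glycerol, were not analysed here. Pnpla2, which encodes the lipase ATGL that starts triglyceride breakdown, was at 13.26 ± 0.03, and its coactivator gene Abhd5 was at 11.80 ± 0.03 (SD, n = 3). Lipe, which encodes hormone-sensitive lipase, was at 13.11 ± 0.07 and Gpd1, which encodes cytosolic glycerol 3-phosphate dehydrogenase, at 13.62 ± 0.03 (SD, n = 3). Of their probe sets, 2 of 2 for Pnpla2, 2 of 3 for Abhd5, 1 of 2 for Lipe and 3 of 4 for Gpd1 were above the line.

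Enzymes that remove hydrogen peroxide, which some aquaporins carry, were mostly above background. The count was 8 of 9 measured genes, including the catalase gene Cat at 12.67 ± 0.02 and Gpx4 at 13.46 ± 0.02 (SD, n = 3). Over all measured genes the share was 54.5%, with 39.3% for those with 1 probe set and 70.0% for those with several. Of the 12 listed, Prdx1, Prdx5 and Prdx6 were not analysed here. Gpx3 was not above the line.

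Genes of cell volume control, which works on water that aquaporins let through, were above background in 9 of 13 cases, or 69.2%, against 54.5% of all measured genes and 70.0% of those with several probe sets. Slc6a6 and Slc5a3, which encode the carriers of the osmolytes taurine and myo-inositol, were at 12.13 ± 0.03 and 11.86 ± 0.06 (SD, n = 3). Lrrc8d, a subunit of the volume-regulated anion channel, was at 10.39 ± 0.04 and the kinase gene Wnk1 at 12.00 ± 0.03 (SD, n = 3). Slc6a12, Lrrc8c, Lrrc8e and the osmosensitive channel gene Trpv4 were not above the line, the last at 7.28 ± 0.06 (SD, n = 3).

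Of 11 measured genes for partners and regulators of aquaporins, 7 were above background, or 63.6%, between the shares of 54.5% over all measured genes and 70.0% over those with several probe sets. They included the protein kinase A subunit gene Prkaca at 12.48 ± 0.04 and the adenylyl cyclase gene Adcy6 at 10.98 ± 0.06 (SD, n = 3), which act between vasopressin and AQP2 in the kidney. Vta1, whose product takes part in sorting AQP2 for degradation, was at 10.72 ± 0.03 (SD, n = 3). Dag1, which encodes dystroglycan of the complex that anchors AQP4, was at 12.12 ± 0.02 (SD, n = 3). Dmd and Dtna of that complex were below the line, as were Mal and Avpr2.

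For the remaining aquaporins, markers of the cell types that carry them were above background in 2 of 6 astrocyte genes (Slc1a3 and Aldh1l1), 2 of 7 hepatocyte genes (Cyp2e1 and Ttr) and 2 of 6 keratinocyte genes (Krt10 and Trp63). Slc1a3 was at 11.97 ± 0.03, with 5 of its 6 probe sets above the line, and Cyp2e1 at 10.14 ± 0.08 (SD, n = 3). Aldh1l1, Ttr, Krt10 and Trp63 were at 8.30, 8.49, 8.39 and 7.83. Of their probe sets, 1 of 2 for Aldh1l1, 1 of 4 for Ttr, the single one for Krt10 and 1 of 4 for Trp63 were above the line. The astrocyte gene Gfap was at 6.49, the hepatocyte gene Alb at 6.61 and the keratinocyte genes Krt5 and Krt14 at 7.25 and 6.65, all below the line. Leukocyte genes were above it in 3 of 7 cases (Lyz2 at 11.19, Cd14 at 8.83 and Csf1r at 8.70) and skeletal muscle genes in 1 of 6 (Ckm at 8.25). Csf1r was above it by 2 of its 3 probe sets and Ckm by 1 of its 2. Over all measured genes the share above background was 54.5%. These markers too are levels in a culture of a cell line, and their relation to the aquaporin values was not tested.

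**Figure D4:**
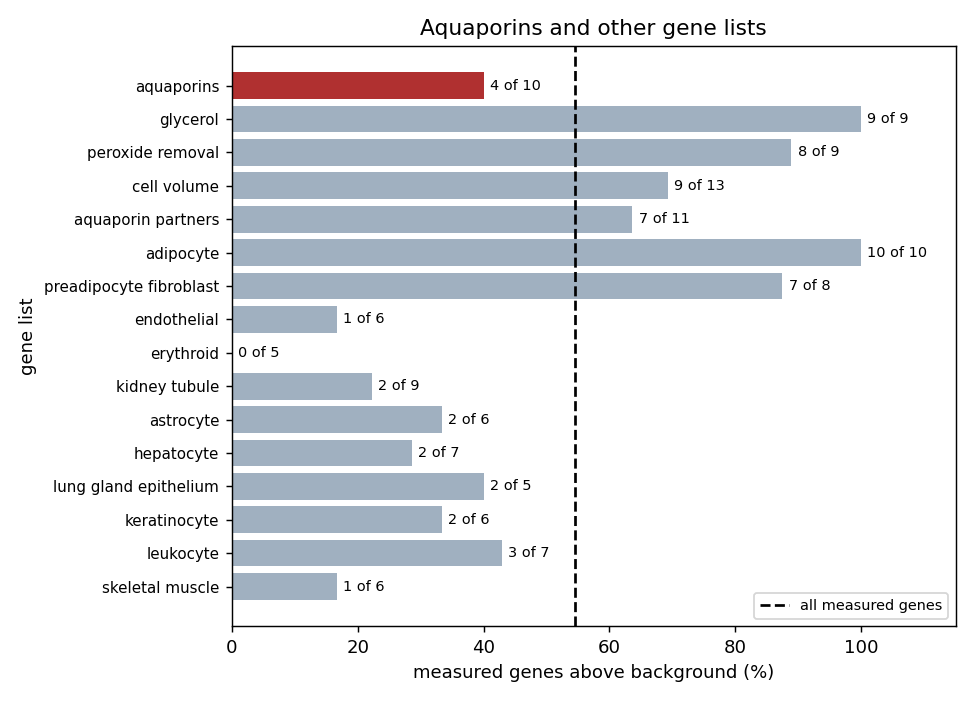
Share of measured genes above background (x axis, percent) for the 10 aquaporins and for each other gene list (y axis), with the count beside each bar and the share over all measured genes, 54.5%, as a dashed line. The aquaporin bar, 4 of 10, lies left of the line, as do those of the lists for other cell types except preadipocytes and fibroblasts, at 7 of 8. The glycerol and adipocyte bars reach 9 of 9 and 10 of 10.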

How the data were processed

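Per the methods, background correction and normalization of the mouse4302 arrays were done by the authors with RMA in affyPLM (no version stated). The deposited values are probe set intensities on a linear scale (6.26 to 25611, array medians of 127.6, 126.9 and 126.9), whereas RMA itself gives log2 values. Log2 was taken without a pseudocount, and any later scaling or centring is unknown. Precision is limited by the number of arrays.

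The platform annotation gave 34958 of 45101 probe sets 1 gene, 932 several and 9211 none, and only the first kind was used. Of these, 34754 matched RefSeq genes (GRCm38.p6) by Entrez identifier, with 0 symbols changed. List genes with no such probe set were left out.

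The members and lists were chosen with earlier results of these data known. The promoter motifs were chosen after the promoter sequences had been seen, and a planned comparison of the aquaporin protein sequences was not run. All 10 members, Aqp12 and Mip were named, and in each list at most the 4 highest genes above background and the 4 lowest of those not above it. Levels were ranked only to choose these names, and the order of those not above background has no meaning. With 1 group of samples, no test was made. Alternatives were other background percentiles and genes, the median over probe sets, omission of probe sets that can cross-hybridise, the mean over arrays, centring and omission of each array. Calls were checked on simulated data in which present genes lay well above the line, which says nothing about calls near it. Python 3.11.15, pandas 2.3.3, numpy 2.4.6 and matplotlib 3.10.9 were used.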

Additional observations from a re-analysis of the deposited data

How the results depend on the processing

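No paired analysis was possible because only 1 group of samples was given. The number of aquaporins above background, 4, was 3 with the 99th percentile as background (without Aqp2), with the median of probe sets and without probe sets that can cross-hybridise (both without Aqp11). The number of all genes above background, 9924 of 18194, also fell under these settings, to 8748, 8006 and 9535 in that order. The aquaporin count was 4 under the other 8 settings, and Aqp5 and Aqp7 were above background under all 11. Leaving out trace amine receptors, a background chosen after the data were seen, gave a line of 7.57 from 86 probe sets. Of the 187 counts for all genes and lists under these settings, 12 moved by more than 1.5 times, all for markers of other cell types. Kidney tubule and keratinocyte genes numbered 1 each with the 99th percentile and with a background of keratin-associated and defensin genes, and 0 and 1 with the median of probe sets. With that median, astrocyte and hepatocyte genes numbered 1 each, and without probe sets that can cross-hybridise lung and gland epithelium genes numbered 1. Erythroid genes numbered 1 with the 90th percentile and with the mean over arrays, and 0 to 1 when single arrays were left out (1 without replicate 3). The cause was not tested. Signal near the line limits these counts.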
